A study of Mus musculus with 37 samples.

Results

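The first of the Tet2 hairpin experiments was carried out in primary neurons taken from C57/Bl6 mouse embryos at day 17 and grown in culture. Its 12 libraries, out of 37 in the whole series, were chosen by their labels: 6 cultures had received a lentivirus carrying a short hairpin RNA against luciferase (shLuciferase), a gene that mouse cells do not have, and 6 had received one labelled shTet2. Both groups therefore carry a virus and a hairpin, and differ by label in the target of the hairpin alone. The hairpin sequence, the brain region, the time in culture, the number of embryos behind a culture and the share of infected cells were not given in the sources used here. Nothing says that libraries of a group came from separate litters, so p-values measure the spread between these samples, which may be technical. RNA had been extracted with TRIzol, and polyA-selected, strand-specific libraries had been read in pairs.

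TET enzymes oxidize methylated cytosine in DNA, a first step towards its removal, and neurons hold high amounts of the oxidized form. A short hairpin RNA is cut by Dicer and loaded into an Argonaute protein, which guides it to messenger RNAs with a matching sequence and lowers them. In neurons, a large share of transcription depends on electrical activity: calcium entry switches on immediate early genes such as Fos and the Nr4a receptors through CREB and other factors that bind short elements near their start sites.

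Reads recovered from the deposited values came to 3029938 to 43788798 per shLuciferase library and 2709421 to 22091432 per shTet2 library. Libraries shTet2 3, shLuciferase 4 and shTet2 6 stood apart from their groups on principal components 1, 2 and 3 in that order (25%, 19.4% and 15.3% of the variance), and they are the 3 shallowest of the 12. Of 95 named genes called in the tests below, 83 stayed called with these 3 left out together. The 12 that did not were Slc25a14, Aco1, Acan, Cspg5, Etv1, Ftx, Prdx6, Ifit3, Slc4a4, Acsbg1, Clu and Aldoc. Of 9198 genes with a mean of 100 or more normalized counts, 42 had no read in shTet2 3, 12 in shLuciferase 4 and 9 in shTet2 6, against 0 to 7 in the other libraries. Library shTet2 4 had a read in 18366 genes, more than any other of the 12, although 3 libraries were deeper. Within groups the Spearman correlation across genes ran from 0.917 to 0.975 in shLuciferase and from 0.879 to 0.968 in shTet2. For the neuronal label, the neuronal tubulin Tubb3 stood at 3395 to 4589.9 normalized counts in shLuciferase and the dendritic protein Map2 at 2412 to 3904. Transcripts of both GABA neurons and excitatory neurons were present. Per kilobase of exon, mean levels in shLuciferase were 701 normalized counts for Gad1 and 396 for Gad2, which make GABA. The excitatory marker Neurod6 stood at 533. The vesicular transporters were lower, at 53.8 for Slc32a1, which carries GABA, and 79.2 for Slc17a7, which carries glutamate. The astrocyte transporter Slc1a3 was also high, at 5693 to 11187 normalized counts, a sign of glia beside the neurons, while the microglial genes Aif1 and Cx3cr1 did not pass 9.13 in any culture.

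Tet2, the targeted gene (chromosome 3, 133463679 to 133545139, minus strand, GRCm38), was not lower in the cultures labelled shTet2. In libraries 1 to 6 it stood at 423, 167, 373, 592, 719.9 and 489 normalized counts in shLuciferase and at 387, 425, 571, 655, 315 and 672 in shTet2. The lowest value of all 12 was a control and the groups overlapped throughout. The exact two-sided permutation test of the means gave p = 0.667 (n = 6 each), and the log2 fold change was 0.21 (SE 0.29, 95% confidence interval −0.39 to 0.80, limma adjusted p = 0.756). The lower bound of that interval does not reach the fall of 1.51 on the log2 scale measured in the second knockdown of the series. The gene does not bear out the label, so every direction below is that of the libraries labelled shTet2. Its paralogs were not called either: Tet1 was at 267 to 755 against 151 to 423 (−0.52, adjusted p = 0.42) and Tet3 at 498 to 708 against 501 to 1084 (0.33, adjusted p = 0.429).

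Of 24411 genes in the table, 18315 had a mean of 0.5 or more normalized counts and were tested by limma on log2(normalized count + 1). At a Benjamini-Hochberg adjusted p of 0.05, 354 were called, which is 1.93% of those tested: 120 were higher in shTet2 (0.655%) and 234 were lower (1.28%). In 262 of the called genes the groups of 6 did not overlap, 77 higher and 185 lower, and 2.25% of all genes tested showed no overlap. Falls of more than 1 on the log2 scale numbered 106 and rises of that size 57. The calls lay mostly in well-measured genes, since 20 of 354 had a mean under 100. Low genes as a whole leaned upwards, with a median log2 fold change of 0.33 under that mean and 0.01 above it. The authors' deposited table, made with DESeq2 per its headers, called 846 genes, 362 higher and 484 lower, and 353 of the 354 are among them. A total of 185 genes, 43 higher and 142 lower, were called in every one of 12 fits that each left out 1 library.

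**Figure D1:**
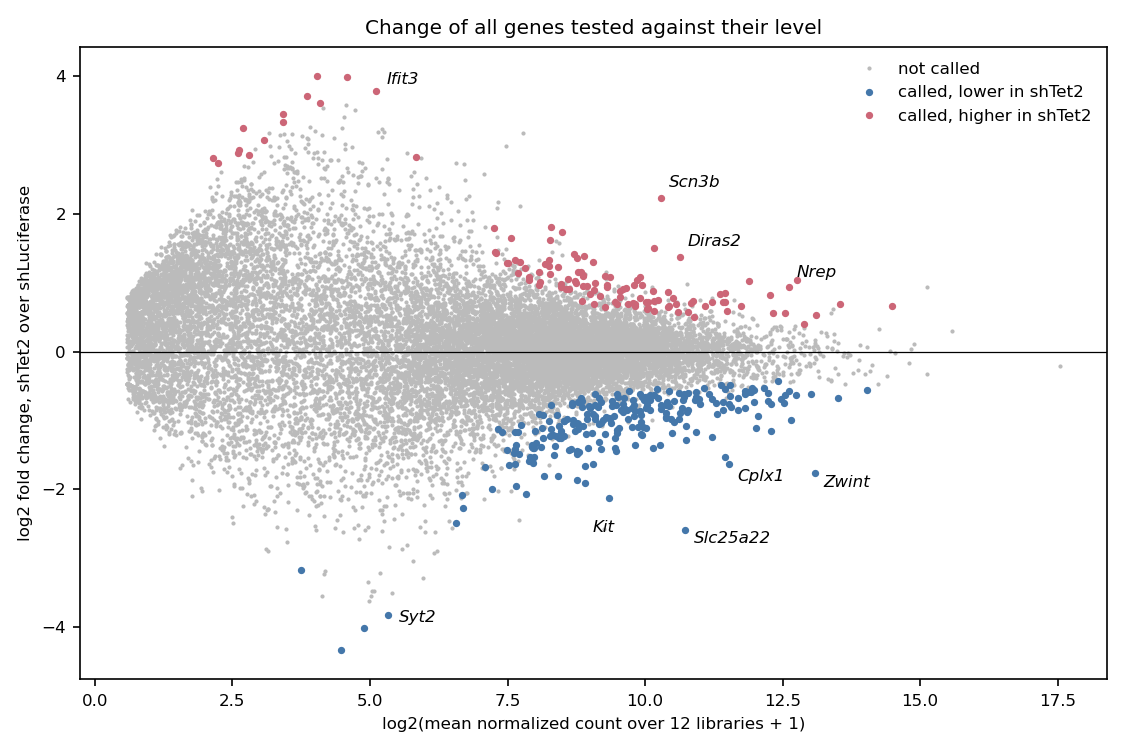
Change of the 18315 genes tested against their mean level, with called genes in colour. The x axis is log2(mean normalized count + 1), the y axis the log2 fold change of shTet2 over shLuciferase; 234 genes were called lower and 120 higher, and Slc25a22, Zwint, Cplx1 and Scn3b stand away from genes of their level.

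The smallest p of the experiment, and the largest fall among called genes with a mean of 100 or more, belonged to Slc25a22, a mitochondrial carrier that brings glutamate into the matrix, on chromosome 7 (141429744 to 141437892, minus strand). Its normalized counts were 2130.2 at the lowest, 2941 at the median and 3610.4 at the highest in shLuciferase, and 391, 465 and 598 in shTet2. Every shTet2 culture was far below the lowest control. The log2 fold change was −2.59 (SE 0.16, adjusted p = 3.1e-09). Cend1, a membrane protein tied to neuronal cell cycle exit, lies 0.252 kb from it on the same strand, and fell from a median of 2392 (2114 to 2743) to 1007 (803 to 1172), by 1.28 on the log2 scale (SE 0.13, adjusted p = 1.3e-05). Another adjacent pair that fell was Slc6a17, which loads neutral amino acids into synaptic vesicles, and the potassium channel Kcnc4, with 7.99 kb between them on chromosome 3. Slc6a17 went from a median of 781 to 195 (−1.92, SE 0.28, adjusted p = 4.7e-04) and Kcnc4 from 299.8 to 111 (−1.35, SE 0.28, adjusted p = 0.0109), and in both the groups did not overlap. Of all genes, 10 of 226 genes called lower with a known position (4.42%) had another called lower within 50 kb, and 610 of 17192 genes not called (3.55%) had one.

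Within the list of glutamate and GABA metabolism drawn up here, genes fell wherever they were called. Of 31 tested genes of glutamate and GABA metabolism, 5 fell and 0 rose, beside 1.28% called lower among all genes. The median log2 fold change was −0.27, against 0.09 over all genes tested. Abat, which breaks GABA down in mitochondria, fell from a median of 3878 (2417 to 6846) to 1436 (1122 to 1585), a change of −1.53 on the log2 scale (SE 0.19, adjusted p = 8.2e-05). Every shTet2 culture lay under the lowest control, and the spread between cultures was far narrower in shTet2. Got1, which interconverts glutamate and aspartate, fell from 2133 (2053 to 2562) to 1230.0 (1021 to 1439.7), by 0.88 on the log2 scale (SE 0.13, adjusted p = 5.5e-04). The neuronal glutamate transporter Slc1a1 fell from 1135 to 578 (−1.21, SE 0.22, adjusted p = 0.00454), and the GABA transporter Slc6a11 from 289 to 114 (−1.42, SE 0.29, adjusted p = 0.0102). In neither did the groups overlap, although Slc1a1 overlaps a gene of the opposite strand and is uncertain.

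**Figure D2:**
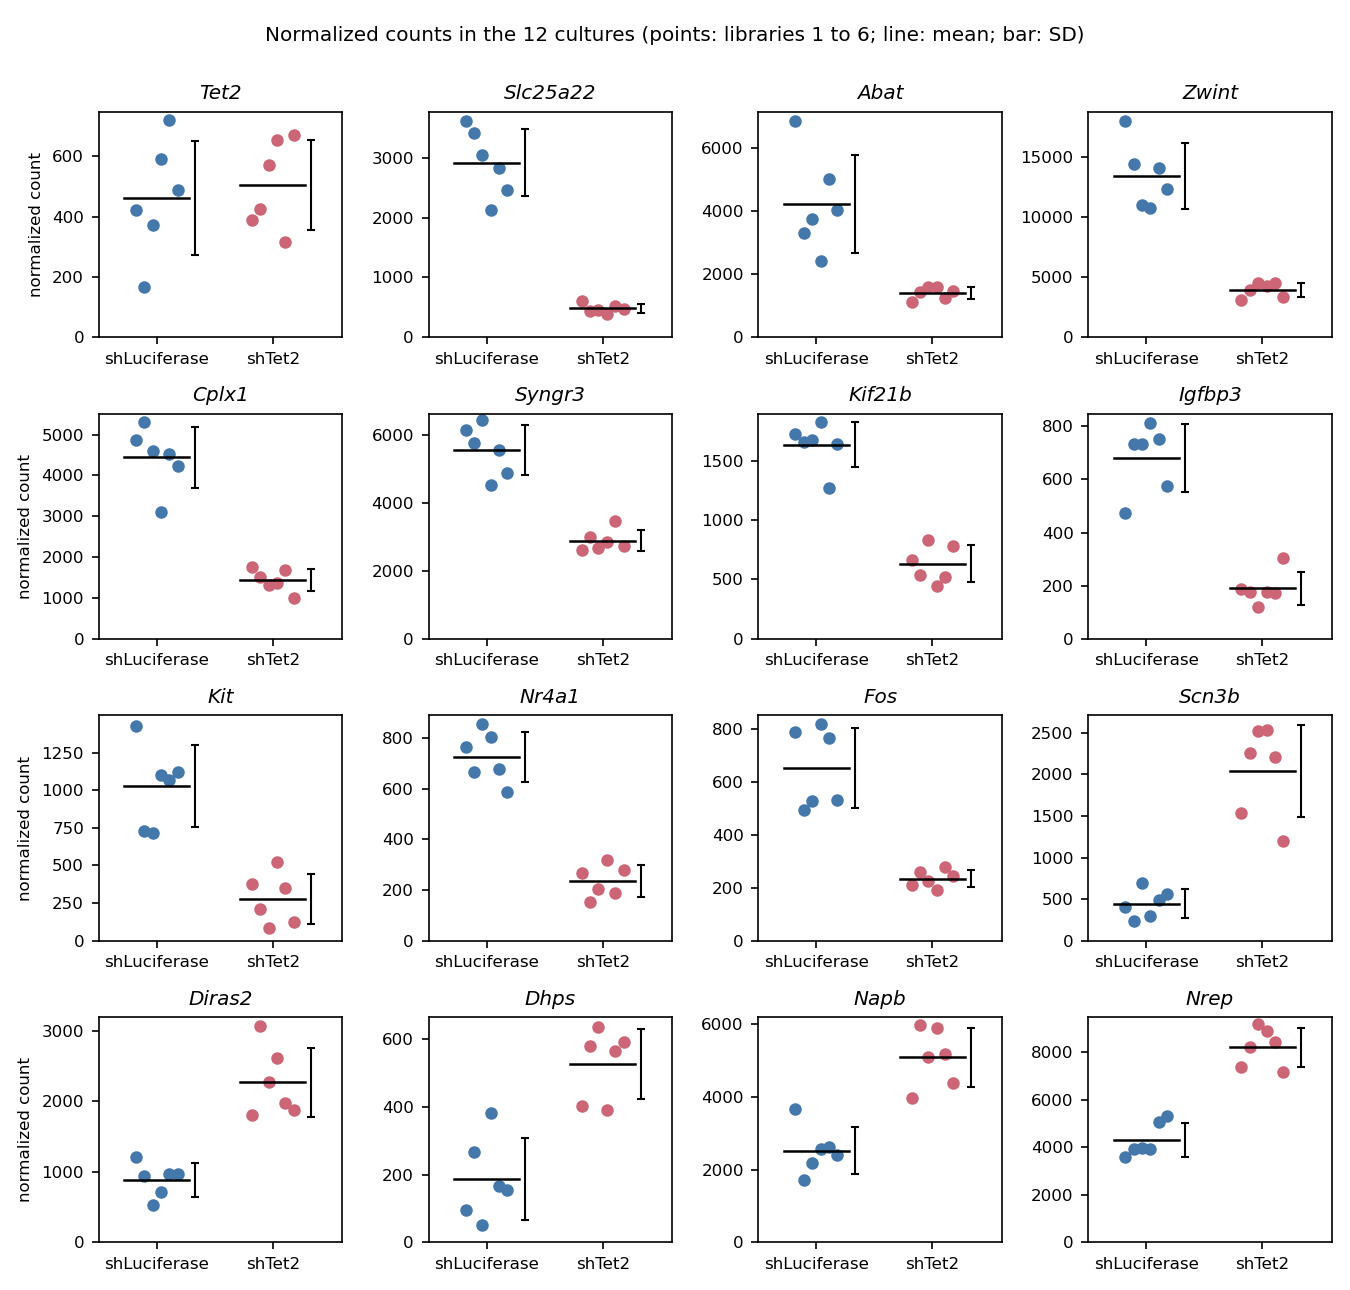
Normalized counts of 16 genes in the 12 cultures, points being libraries 1 to 6 from left to right, the line the mean and the bar the SD. Tet2 overlaps fully between the groups, while in the other 15 genes no shTet2 value lies within the shLuciferase range.

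Of 36 mitochondrial carriers tested (median −0.21), 2 fell and 1 rose, beside 1.28% called lower and 0.655% called higher among all genes. Beside Slc25a22 the other that fell was Slc25a12, the aspartate and glutamate exchanger, at a median of 1979 against 1246 (−0.62, SE 0.14, adjusted p = 0.0175). Its highest shTet2 value, 1846 in library 3, came close to the lowest control of 1869. Slc25a14, of the uncoupling protein group, was called higher at 762 against 485 (0.64, adjusted p = 0.0464), but the call was lost without any 1 of 11 libraries (adjusted p up to 0.12) and with edgeR (0.0741). In the tricarboxylic acid cycle 2 of 27 genes fell and 1 rose, beside the same 1.28% and 0.655% of all genes. Idh2, the mitochondrial isocitrate dehydrogenase, whose product 2-oxoglutarate TET enzymes consume, had a median of 634 (478 to 788) in shLuciferase and 287 (183 to 515) in shTet2 (−1.08, SE 0.23, adjusted p = 0.0131), with 1 shTet2 culture inside the control range. The succinate dehydrogenase subunit Sdhc was called lower (−0.62, adjusted p = 0.0322) and the cytosolic aconitase Aco1 higher (0.96, adjusted p = 0.0334), but these calls were lost without any 1 of 6 libraries (up to 0.0858) and of 7 libraries (up to 0.085).

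Among 71 nuclear-encoded subunits of the respiratory chain 4 fell and 0 rose, beside 1.28% called lower among all genes. Of the 71, 54 had a negative log2 fold change (median −0.11). The complex I subunit Ndufb8 fell from 1794 (1242 to 2148) to 862 (765 to 1161), by 0.95 (SE 0.15, adjusted p = 0.00163), and the subunit Ndufa2, which shares bases with a gene of the other strand, from 1224 to 758 (−0.82, adjusted p = 0.00808). The Rieske protein of complex III, Uqcrfs1, fell by 0.52 (SE 0.11, adjusted p = 0.0156), from 2334 to 2747 in controls to 1631 to 1967. The change was small but the groups were clearly apart. Of 28 genes of glycolysis and glucose uptake 1 rose and 2 fell (median 0.07), beside 0.655% and 1.28% of all genes. Hexokinase Hk1, the entry to glycolysis, was higher, at 2813 to 4194 against 1123 to 2909.6 (0.83, SE 0.18, adjusted p = 0.0146), with an overlap of the ranges. Pdk2, a kinase that restrains pyruvate dehydrogenase, was lower, at 176 to 406 against 431 to 951 (−0.99, SE 0.24, adjusted p = 0.0338), without overlap, and the call was lost without any 1 of 5 libraries (up to 0.101). The other that fell was the aldolase Aldoc, given below with the astrocyte markers.

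A minority of the immediate early transcription factors fell in the same cultures. Of 29 tested, 5 fell and 0 rose, beside 1.28% called lower among all genes, and 24 had a negative log2 fold change. The median of the list was −0.90. With libraries shTet2 3, shTet2 6 and shLuciferase 4 left out together the median was −0.39 and 5 members were called lower. The called genes were Fos and Fosl2, which pair with Jun proteins to form AP-1, and Nr4a1, Nr4a2 and Nr4a3, orphan nuclear receptors. The 250 bases before the start sites of 4 of them are shown (RefSeq, GRCm38.p6). They run 5′ to 3′ on the strand of the gene. These 4 windows were picked because they hold the core of the cyclic AMP response element, which CREB binds. Whether the core bears on the falls was not tested. Capitals mark that core, TGACG or its reverse complement CGTCA.
Nr4a1: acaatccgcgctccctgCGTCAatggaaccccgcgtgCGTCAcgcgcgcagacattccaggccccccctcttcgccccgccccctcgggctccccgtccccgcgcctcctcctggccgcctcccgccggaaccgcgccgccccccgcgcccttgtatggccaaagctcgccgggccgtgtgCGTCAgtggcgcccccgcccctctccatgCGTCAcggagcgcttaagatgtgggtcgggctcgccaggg
Nr4a2: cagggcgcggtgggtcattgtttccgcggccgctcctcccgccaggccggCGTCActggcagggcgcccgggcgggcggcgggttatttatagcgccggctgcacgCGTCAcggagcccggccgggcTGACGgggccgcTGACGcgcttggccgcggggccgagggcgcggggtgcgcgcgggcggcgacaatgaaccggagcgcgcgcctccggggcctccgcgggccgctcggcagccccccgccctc
Nr4a3: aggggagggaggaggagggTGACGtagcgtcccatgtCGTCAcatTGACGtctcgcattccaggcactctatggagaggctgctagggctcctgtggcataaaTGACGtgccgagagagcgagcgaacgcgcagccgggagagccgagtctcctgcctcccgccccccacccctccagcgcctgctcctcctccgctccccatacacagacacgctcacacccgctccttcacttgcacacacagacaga
Fos: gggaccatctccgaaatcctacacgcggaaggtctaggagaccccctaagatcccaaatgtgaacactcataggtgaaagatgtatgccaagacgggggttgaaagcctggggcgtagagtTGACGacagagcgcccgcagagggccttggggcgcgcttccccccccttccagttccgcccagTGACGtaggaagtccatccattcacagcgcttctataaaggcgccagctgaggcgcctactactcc
They lie at chr15:101266596-101266845 (plus strand), chr2:57124004-57124253 (minus), chr4:48045055-48045304 (plus) and chr12:85473640-85473889 (plus). The Nr4a windows hold 4 cores each and that of Fos holds 2, while the window of Fosl2 holds 0. The core was found on either strand in 18 of 23 immediate early genes with a promoter entry (78.3%), in 26.6% of the tested genes with an entry and in 28.5% of those called lower. Among genes called higher it was 31.5%. The full element TGACGTCA, which contains the core on both strands, was in 0 of the 5 windows and in 2.68% of tested genes.

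Nr4a1 went from 586, 721 and 855 normalized counts (lowest, median and highest) in shLuciferase to 153, 235 and 319 in shTet2, a change of −1.66 on the log2 scale (SE 0.20, adjusted p = 8.2e-05). Nr4a2 went from 259, 339 and 479.7 to 25.5, 83.7 and 172 (−2.07, SE 0.39, adjusted p = 0.0055). Nr4a3 went from 176, 246 and 526 to 59.7, 88.7 and 139 (−1.63, SE 0.32, adjusted p = 0.00754). In all 3 receptors the highest shTet2 culture was below the lowest control. Fos fell from 492, 646 and 818 to 190.4, 235 and 277 (−1.45, SE 0.20, adjusted p = 2.7e-04). Fosl2 fell from 331, 516 and 618 to 144, 199 and 299 (−1.25, SE 0.23, adjusted p = 0.00433). All 5 were also called by edgeR and in each fit that left out 1 library.

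Effector genes that activity induces had 3 falls and 0 rises among 39 tested, beside 1.28% called lower among all genes. The median of the list was −0.22. Rgs2, which shortens G protein signals, fell from 1218 (1118 to 1637) to 614 (482 to 680.1), by 1.09 (SE 0.15, adjusted p = 2.9e-04). The others were Ntrk2 and Acan, given below with their families. In the list of regulators that answer to the ERK kinase pathway 2 of 29 fell, beside the same 1.28% of all genes. The ETS factor Etv5 was at 729.8 to 1033 against 969 to 2578 (−0.89, SE 0.18, adjusted p = 0.0113). Its relative Etv1 was at 112 to 415 against 359 to 818 (−1.13, adjusted p = 0.0349, lost without any 1 of 7 libraries, up to 0.0875). Ranges of both overlapped.

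Several identity genes of GABA interneurons fell. Of 36 markers tested, 4 fell and 0 rose, beside 1.28% called lower among all genes, and the median of the list was −0.42. The receptor tyrosine kinase Kit, carried by interneurons of the cortex and hippocampus, fell from 717, 1084 and 1431 normalized counts to 81.1, 278 and 521 (−2.12, SE 0.35, adjusted p = 0.00163). Cort, the peptide cortistatin, fell from 121, 127 and 315 to 10.8, 33.6 and 64.3 (−2.28, SE 0.47, adjusted p = 0.0109). Reln, the matrix protein reelin, fell from 571, 1073 and 1713 to 182, 411 and 424 (−1.44, SE 0.25, adjusted p = 0.00316), and Tac1, the substance P precursor, from 271, 360.4 and 443 to 132, 159.6 and 165 (−1.16, SE 0.22, adjusted p = 0.0055). In these 4 genes no shTet2 culture reached the control range. Summed over all 36 markers the level was 27897 to 32748 in shLuciferase and 21202 to 25346 in shTet2, without overlap. The summed progenitor and proliferation genes, given below, did not overlap either. Over 12 markers of Cajal-Retzius cells, which also make reelin, it was 1588 to 2750 against 1060 to 1500, but that sum holds Reln itself. Without Reln it overlapped, at 894 to 1240.0 against 643 to 1106. Of the 11 Cajal-Retzius markers tested Reln alone was called, the median was 0.07, and 6 of the 12 had a mean under 10. In bulk RNA, fewer cells of a type and less RNA per cell cannot be told apart. The enzymes that make GABA were not called: Gad1 stood at −0.42 (adjusted p = 0.241) and Gad2 at 0.21 (adjusted p = 0.496), and neither was the peptide Sst (−0.47, adjusted p = 0.3) nor Npy (−0.59, adjusted p = 0.197).

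Among 30 markers of excitatory neurons 2 fell, Calb1 and the Etv1 given above, beside 1.28% called lower among all genes. The summed level of the 30 overlapped, at 21394 to 31145 in shLuciferase and 22270.3 to 28203 in shTet2. The calcium buffer calbindin, Calb1, was at 597 to 975 against 917 to 2160.4 (−0.84, SE 0.19, adjusted p = 0.0205), a call lost without shLuciferase 6 (adjusted p = 0.0587) or shTet2 1 (0.0535). Of 15 GABA-A receptor subunits 1 fell and 1 rose, beside 1.28% called lower and 0.655% called higher among all genes. The one called lower was Gabra5, at 106 to 487 against 492 to 906 (−1.18, adjusted p = 0.0332), and its call was lost without any 1 of 6 libraries (up to 0.078).

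Peptide and dense core vesicle genes had 29 of 35 log2 fold changes below 0, a median of −0.47, 4 falls and 1 rise. Among all genes 1.28% were called lower and 0.655% higher. Cort and Tac1 are 2 of the falls. Carboxypeptidase E, Cpe, which trims peptide precursors, went from 4169, 6254 and 7928 to 2970.3, 3557 and 4258 (−0.72, SE 0.15, adjusted p = 0.0111), with a slight overlap. In the same list Scg5, a chaperone of prohormone convertase, rose, from 1288, 1349.7 and 1712 to 2205, 2311 and 2602 (0.74, SE 0.12, adjusted p = 0.00163), with no overlap. In the list of the perineuronal net and hyaluronan matrix 3 of 29 genes were called, all lower, beside 1.28% of all genes. They were the core proteoglycan Acan, at 9.27 to 121 against 111 to 196 (−2.09, adjusted p = 0.0449), Cspg5 at 208 to 656 against 314 to 1466 (−1.26, adjusted p = 0.0428) and the receptor phosphatase Ptprz1 at 3937 to 5719 against 5219 to 10272 (−0.63, adjusted p = 0.0441). All lie near the threshold. Acan was lost without any 1 of 11 libraries (up to 0.109) and with edgeR (0.0741), Cspg5 without any 1 of 9 (up to 0.127) and Ptprz1 without any 1 of 8 (up to 0.108). Leaving out shTet2 3, shTet2 6 and shLuciferase 4 together left 1 of the list called.

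**Figure D3:**
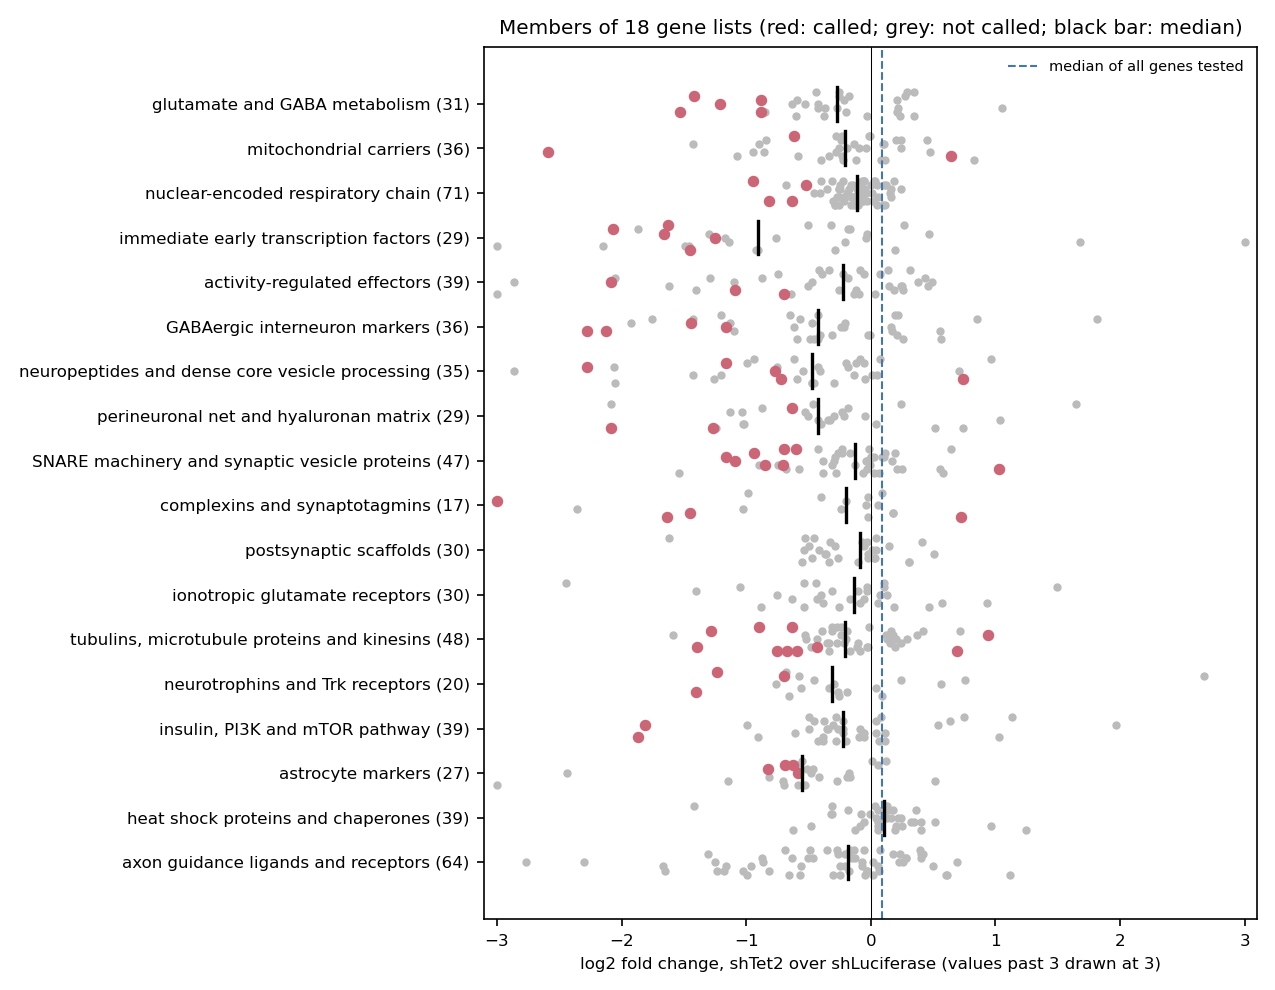
Log2 fold change of each tested member of 18 gene lists, red where called and grey where not, with the median of each list as a black bar and the median of all genes (0.09) as a dashed line. The immediate early list has a median of −0.90 (−0.39 with shTet2 3, shTet2 6 and shLuciferase 4 left out). All red points of the lists of glutamate and GABA metabolism, interneuron markers and neurotrophins lie left of 0. The same holds for the respiratory chain, immediate early, effector, perineuronal net, insulin and astrocyte lists.

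Most of the called presynaptic genes fell. Of 47 genes of the SNARE machinery and synaptic vesicles, 7 fell and 1 rose, beside 1.28% called lower and 0.655% called higher among all genes. The median was −0.13, and −0.26 with the 3 libraries that stand apart left out. The vesicle protein Syngr3 fell from 5668 to 2800.4 at the median (−0.94, SE 0.12, adjusted p = 1.8e-04), and the vesicle GTPase Rab3b from 1308 to 618 (−1.09, SE 0.15, adjusted p = 2.2e-04). In both the groups did not overlap, Rab3b sharing bases with a gene on the other strand. The riser was Napb, the brain form of the SNAP protein that recycles SNARE complexes, from 1709, 2488 and 3666 to 3959, 5147 and 5978 (1.03, SE 0.16, adjusted p = 0.00101).

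Complexins clamp and trigger the SNARE complex, and synaptotagmins sense calcium. Of 17 such genes 3 fell and 1 rose (median −0.20), beside 1.28% called lower and 0.655% called higher among all genes. Complexin 1, Cplx1, had the third smallest p of the experiment, at 3115, 4561 and 5300.0 in shLuciferase and 994, 1444 and 1756 in shTet2 (−1.63, SE 0.15, adjusted p = 4.6e-06). Syt6 fell from 499 to 766 in controls to 95.1 to 365 (−1.45, SE 0.26, adjusted p = 0.00433), and Syt5 rose from 1691 to 2545 to 3079 to 3947 (0.73, SE 0.13, adjusted p = 0.00427). Syt2, a sensor of fast-spiking cells, stood at 38.4 to 123 against 0 to 27.8 (−3.83, adjusted p = 0.0264), few reads in shallow libraries, and its call was lost without any 1 of 5 libraries (up to 0.0725). On the receiving side, 0 of 30 postsynaptic scaffolds and 0 of 30 ionotropic glutamate receptors and their auxiliary subunits were called by limma. Of the scaffolds 4 were under 0.05 unadjusted, edgeR called 0 and DESeq2 2, and of the receptors 5 were, with 1 and 3 called. With the 3 libraries that stand apart left out, 3 of the receptor list were called lower.

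Adhesion molecules across the synapse had 2 falls and 1 rise among 57 tested, with a median of −0.22. Among all genes 1.28% were called lower and 0.655% higher. The teneurin Tenm3 fell from 500.3, 889 and 949.5 to 157, 247 and 387 (−1.64, SE 0.23, adjusted p = 4.2e-04), and Nlgn2, the neuroligin of inhibitory synapses, from 837, 966 and 1476 to 421, 587 and 655 (−0.99, SE 0.18, adjusted p = 0.00456). Lgi1, a secreted synaptic linker, rose from 410.4, 552 and 664 to 808, 1074 and 1326 (0.93, SE 0.18, adjusted p = 0.00572). None of the 3 overlapped between groups, which held for 262 of all 354 called genes.

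In the list of tubulins, microtubule proteins and kinesins 8 of 48 fell and 2 rose (median −0.21). Among all genes 1.28% were called lower and 0.655% higher. The kinesin Kif21b fell from 1272, 1669 and 1828 to 448, 603 and 836 (−1.39, SE 0.17, adjusted p = 6.5e-05). Stmn1, which frees tubulin from microtubules, fell from 6876, 7272 and 8016 to 3735, 4250.0 and 5522 (−0.75, SE 0.12, adjusted p = 0.00114). Tubb3, used above as the neuronal marker and named after its value was seen, fell from 3395 to 4589.9 to 2184 to 2993 (−0.67, SE 0.13, adjusted p = 0.00516), while the neuronal genes Rbfox3 and Map2 were not called (0.12, adjusted p = 0.807, and 0.25, adjusted p = 0.439). A rise was seen for Nrep, a protein of regenerating neurons, from 3603, 3961 and 5294 to 7155, 8309 and 9179 (0.94, SE 0.13, adjusted p = 2.2e-04). The neurofilament Nefm was called lower (−1.18, adjusted p = 0.0344) and the progenitor filament nestin, Nes, higher (1.41, adjusted p = 0.0362), with overlapping groups and calls lost without any 1 of 7 libraries (up to 0.0971) and of 10 libraries (up to 0.0943).

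Zwint, whose protein joins the kinetochore in dividing cells and binds SNAP25 in neurons, was the most abundant of the called genes that fell by more than 1 on the log2 scale (chromosome 10, 72654845 to 72674964, plus strand). It stood at 10744, 13218 and 18069 normalized counts in shLuciferase and at 3132, 4074 and 4504 in shTet2 (−1.76, SE 0.14, adjusted p = 3.9e-07). It was the only called gene among 25 kinetochore proteins and Zwint partners tested, whose median was 0.05. Among 39 genes of neural progenitors and proliferation 2 fell, Stmn1 and the chromatin protein Hmgb2 (−0.79, SE 0.17, adjusted p = 0.0127), and Nes rose. The shares of all genes called lower and higher were 1.28% and 0.655%. The proliferation gene Mki67 stood at 0.18 (adjusted p = 0.865) and Top2a at −0.63 (adjusted p = 0.411). The summed level of the list, which holds Stmn1, was 21375 to 24990 in shLuciferase and 16756 to 20030 in shTet2, without overlap. Stmn1 alone was at 6876 to 8016 against 3735 to 5522, and the sum without it was not taken.

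Of 39 genes of the insulin, PI3K and mTOR pathway (median −0.22), 2 fell and 0 rose, beside 1.28% called lower among all genes. Igfbp3, which binds insulin-like growth factors outside the cell, fell from 474, 734 and 813 to 120.3, 175 and 306 (−1.87, SE 0.23, adjusted p = 6.6e-05). The highest shTet2 culture was under the lowest control.

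Of 20 neurotrophin and related receptor genes 3 fell and 0 rose (median −0.31), beside 1.28% called lower among all genes. Sort1, the sorting receptor for BDNF precursors, went from 621, 1094 and 1149 to 196, 428 and 600.1 (−1.40, SE 0.23, adjusted p = 0.00192), and the GDNF receptor Gfra1 from 383, 424 and 608 to 106, 208 and 284 (−1.23, SE 0.24, adjusted p = 0.0075). Both share bases with a gene of the other strand. The BDNF receptor Ntrk2 was at 2949 to 5317 against 4983 to 8808 (−0.69, SE 0.16, adjusted p = 0.0226), with an overlap and the call lost without any 1 of 4 libraries (up to 0.0657). Garem, an adaptor in growth factor signalling to ERK, fell from 122, 229 and 336 to 33.6, 57.6 and 101 (−1.99, SE 0.36, adjusted p = 0.00433). Among 32 small GTPases of the Ras family Rasl11b fell from 597 to 206 at the median (−1.43, SE 0.22, adjusted p = 8.3e-04). Diras2 and Ralb rose, as given below.

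Ago2, the Argonaute that cleaves targets of hairpin RNAs, fell from 824, 931 and 1241 to 260.2, 472 and 693 (−1.11, SE 0.20, adjusted p = 0.00472) and was the only called gene among 22 of the RNA interference machinery. It shares bases with a gene on the other strand. Srm, which makes spermidine, fell from 297, 411 and 669.8 to 107, 189.6 and 266 (−1.22, SE 0.26, adjusted p = 0.014). Dhps, which uses spermidine to modify the translation factor eIF5A, rose from 51.2, 161 and 383 to 389.9, 571 and 635 (1.74, SE 0.36, adjusted p = 0.00972), though it overlaps Wdr83 on the other strand and is uncertain. The remaining 17 of 19 genes in the hypusine and polyamine list were not called. Further falls by the rule on smallest p were the endosomal Nsg2 (−1.12, SE 0.13, adjusted p = 4.6e-05), the Golgi protein Gorasp2 (−1.36, SE 0.16, adjusted p = 6.1e-05) and Tmem130 (−1.25, SE 0.15, adjusted p = 6.5e-05), and by size the splicing factor Bud31 (−1.95, SE 0.35, adjusted p = 0.00433). Gorasp2 and Bud31 overlap genes of the other strand.

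The largest rise among called genes with a mean of 100 or more was that of Scn3b, an accessory subunit of voltage-gated sodium channels, on chromosome 9 (40269217 to 40291618, plus strand). Its values were 236, 443 and 695 in shLuciferase and 1196, 2236 and 2534 in shTet2 (2.23, SE 0.24, adjusted p = 2.0e-05). The lowest shTet2 culture stood well above the highest control. Of 14 sodium channel genes tested, the other called one was Fgf12, which binds the channels, at 1213 to 2025 against 775 to 1324 (0.66, adjusted p = 0.0351), a call lost without any 1 of 8 libraries (up to 0.0996). Of 34 voltage-gated potassium channels Kcnc4 alone was called by limma. Of 15 voltage-gated calcium channel genes, 0 were called by limma, edgeR or DESeq2, and 0 had an unadjusted p under 0.05.

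Diras2, a brain GTPase, rose from 525, 955 and 1206 to 1809, 2128 and 3069 (1.38, SE 0.19, adjusted p = 2.4e-04), and Ralb, which acts in exocytosis, from 291, 360.3 and 510.2 to 496, 712 and 870.0 (0.90, SE 0.19, adjusted p = 0.0128). The membrane protein Cmtm6 rose from 50.4, 160.2 and 283 to 334, 467 and 531 (1.63, SE 0.31, adjusted p = 0.00626), and Ddit4l, which restrains mTOR, from 133, 288 and 433 to 544, 637 and 859.6 (1.39, SE 0.27, adjusted p = 0.00722). Among more abundant genes, Inpp5f rose, the phosphoinositide phosphatase, from 2584, 4499 and 6449.8 to 7522, 8679 and 12297 (1.04, SE 0.19, adjusted p = 0.00406). Among the antioxidant genes 2 of 37 rose and 0 fell, beside 0.655% called higher among all genes. They were Prdx6 (0.83, SE 0.17, adjusted p = 0.00823, and 0.0588 with the 3 libraries that stand apart left out) and Srxn1 (0.91, SE 0.20, adjusted p = 0.0194). The call of Srxn1 was lost without shLuciferase 3 (0.0595), shTet2 1 (0.0522) or shTet2 5 (0.0551). By smallest p the rises also included Zfand2a, of the arsenite response (1.04, SE 0.16), the aldehyde dehydrogenase Aldh9a1 (1.10, SE 0.18), the acetyltransferase Naa60 (0.87, SE 0.14) and the adenovirus receptor Cxadr (1.08, SE 0.18), with adjusted p from 8.0e-04 to 0.00214. Fxyd6, a regulator of the sodium pump, rose from 4616 to 4875 to 5639 to 8228 (0.56, SE 0.12, adjusted p = 0.0103).

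Ftx, a noncoding gene of the X inactivation centre, rose from 48.3, 123 and 209 to 222, 477 and 864 (1.81, SE 0.36, adjusted p = 0.00808). Its adjusted p was 0.0634 with the 3 libraries that stand apart left out. Chd3os, an antisense RNA, rose from 495 to 692 to 1489 to 2065 (1.50, SE 0.15, adjusted p = 5.8e-06) and is uncertain, since its reads cannot be told from those of its partner where the strand setting is not known. Exonic bases are shared with a gene of the other strand also by Tet2, Reln, Syt6, Tenm3, Lgi1, Gabra5, Nefm, Hk1, Tap1, Ftx, Naa60, Cxadr and Pik3ip1, whose values are uncertain to that extent. The interferon list had 31 of 40 positive log2 fold changes and a median of 0.82, but 1 call, Ifit3, at 0 to 21 against 25.3 to 115 (3.79, adjusted p = 0.0441, and 0.106 with edgeR). The call of Ifit3 was lost without any 1 of 10 libraries (up to 0.102). With the 3 libraries that stand apart left out Ifit3 was not called (0.14), while 3 others of the list were called higher. The peptide transporter Tap1 of antigen presentation stood at 26.6, 53 and 129 against 90.4, 208 and 512 (1.79, adjusted p = 0.0386), with overlap and the call lost without any 1 of 9 libraries (up to 0.0943). Of the 40 interferon genes tested 6 had a mean of 100 or more. The part of the general lean of low genes in this list was not tested.

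Markers of other cells were read as lists. Of 27 astrocyte markers 4 were called lower and 0 higher, beside 1.28% called lower among all genes. The list had a median of −0.55 and 23 negative values. The called genes were the bicarbonate transporter Slc4a4 (−0.83), the fatty acid enzyme Acsbg1 (−0.59), clusterin, Clu (−0.69), and the aldolase Aldoc (−0.62), with adjusted p of 0.0174 to 0.0469. None of the 4 was called with shTet2 3, shTet2 6 and shLuciferase 4 left out together, and without shLuciferase 3 alone all 4 were lost. The summed level of the list, 57557 to 102580 in shLuciferase and 59465 to 67662 in shTet2, overlapped, and the part of astrocyte RNA in the falls of Ptprz1, Cspg5, Slc6a11 and Ntrk2, which astrocytes also make, was not tested. Of 28 vascular, meningeal and fibroblast markers only the proteoglycan Dcn was called, at 102 to 175 against 185 to 572 (−1.39, SE 0.28, adjusted p = 0.00808). Among 20 oligodendrocyte lineage markers, 14 microglial and macrophage markers and 12 choroid plexus and ependymal markers, 0 were called by limma or edgeR. At an unadjusted p under 0.05 there were 3, 1 and 1, and DESeq2 called 1, 0 and 1. In the microglial list 3 of 22 genes were at 0 in all 12 libraries and 19 had a mean under 10. The same holds for genes of other tasks in neurons: 0 of 64 axon guidance genes and 0 of 41 clustered protocadherins were called by limma or edgeR (10 and 9 under 0.05 unadjusted, 4 and 1 by DESeq2). With the 3 libraries that stand apart left out, limma called 2 of the axon guidance genes higher and 0 of the protocadherins.

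The second knockdown of the series compared 6 cultures labelled shLuc with 6 labelled Tet2 KD, also primary neurons, whose RNA was extracted with RNeasy. Its table was normalized separately and shares no library with the first. There 4180 of 16164 genes were called (25.9%). Of 347 genes called in the first knockdown and tested in the second, 239 were called there in the same direction, 186 lower and 53 higher, 11 in the opposite direction and 97 not at all. The shared calls made up 67.5% of the calls of the first experiment and 5.72% of those of the second. Slc25a22 (−2.59 and −3.03), Abat (−1.53 and −2.01), Igfbp3 (−1.87 and −2.71), Scn3b (2.23 and 1.31) and Dhps (1.74 and 2.26) were called in both, although Tet2 itself was lower in the second alone (0.21 and −1.51, difference 1.72, SE 0.41, adjusted p = 0.0256, and up to 0.0502 with 1 library left out).

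A test of the difference, in 1 limma fit of both tables, called 289 of 15796 genes (1.83%), 146 with the first knockdown above the second and 143 below (193 and 115 when scaled by library totals). Of the 347 genes, 64 had a called difference. Among 29 immediate early factors tested, 21 were negative in the first and positive in the second, and 13 had a called difference, all with the first below the second. Fos stood at −1.45 and 2.19 (difference −3.65, SE 0.23, adjusted p = 1.5e-11), Nr4a1 at −1.66 and 1.76 (difference −3.42, SE 0.25, adjusted p = 2.8e-10) and Nr4a3 at −1.63 and 1.40 (difference −3.03, SE 0.33, adjusted p = 2.2e-06). Nr4a2, Fosl2 and the effector Rgs2 followed, with differences of −3.01, −2.08 and −1.41 (adjusted p = 1.4e-04, 3.5e-05 and 7.3e-05), and Acan reached −4.40 (adjusted p = 5.8e-05).

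**Figure D4:**
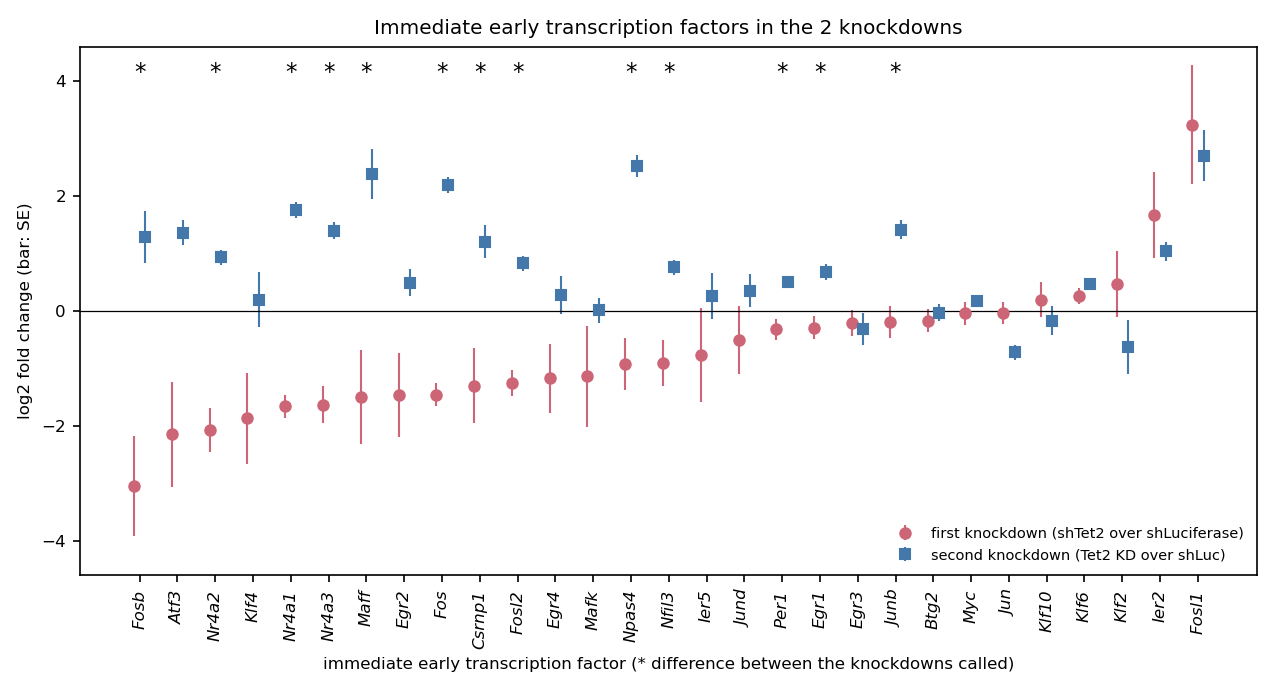
Log2 fold change with its SE of 29 immediate early transcription factors, ordered by the first knockdown (red circles), beside the second knockdown (blue squares). A star marks the 13 genes whose difference was called, all with the first knockdown below the second.

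Of the 4 interneuron genes that fell, 3 had a called difference: Kit (−2.12 against −0.27, difference −1.85, SE 0.42, adjusted p = 0.0195), Reln (−1.44 against −0.10, adjusted p = 0.0236) and Cort (−2.28 against −0.46, adjusted p = 0.0373, and up to 0.0735 with 1 library left out). Tac1 had none (−1.16 against −0.42, adjusted p = 0.116). Cplx1 fell further in the first (−1.63 against −0.75, adjusted p = 0.0143), as did Rasl11b (−1.43 against −0.42, adjusted p = 0.0143), and Syt6 fell there (−1.45 against 0.22, adjusted p = 0.00643). Uqcrfs1 was lower in the first and higher in the second (−0.52 against 0.39, adjusted p = 2.9e-04), and Fxyd6 the reverse (0.56 against −0.35, adjusted p = 2.4e-04). In the other direction, Zwint fell less in the first (−1.76 against −3.06, difference 1.30, SE 0.17, adjusted p = 7.0e-05) and so did the transcription factor Camta1 (−0.95 against −2.32, adjusted p = 8.5e-04). The CaMKII inhibitor Camk2n1 (0.08 against −1.32, adjusted p = 4.2e-04), the surface protein Cd24a (−0.97 against −2.89, adjusted p = 4.2e-04) and the PI3K inhibitor Pik3ip1 (0.25 against −1.09, adjusted p = 4.9e-04) were called in the second knockdown and not by limma in the first. In the first, Cd24a had an adjusted p of 0.0963, against 0.0125 with DESeq2 and 0.00208 with the 3 libraries that stand apart left out. Nrep (0.94 against −0.05, adjusted p = 0.0297, and up to 0.0525 with 1 library left out) and the noncoding gene 1700048O20Rik (1.65 against −0.39, adjusted p = 0.00893) rose in the first. The extraction differs between the experiments and cannot be told apart from the virus, and a change of hairpin was not given in the sources used here. Every library name in the second knockdown includes 3d, possibly a time, and no library name in the first does. The meaning of 3d and the times in culture were not given in those sources. Whether time bears on the differences was not tested.

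**Figure D5:**
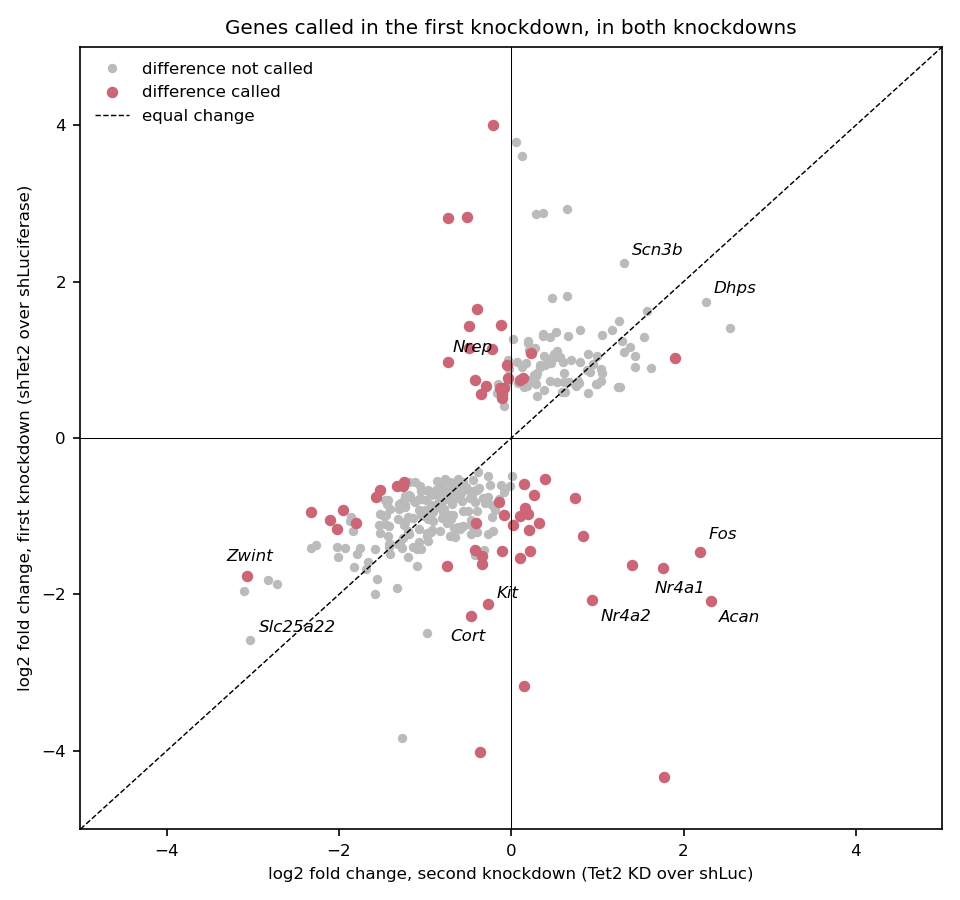
Log2 fold change in the second knockdown (x axis) against the first (y axis) for the 347 genes called in the first and tested in both, red where the difference between the knockdowns was called. Slc25a22, Scn3b and Dhps moved the same way in both, with no called difference, while Fos, Nr4a1, Nr4a2 and Acan lie where the first is lower and the second higher.

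Called genes had lengths near those of other genes of their level. The median span was 26.9 kb for the genes called higher, 26.7 kb for those called lower and 27.5 kb for all tested genes with a mean of 100 or more, and the median exon length was 4.92, 4.79 and 4.93 kb. Across those genes the log2 fold change had a Spearman correlation of 0.02 with exon length and −0.04 with span (8876 genes, which share the same 12 libraries). By chromosome, the share called ran from 1.44% on chromosome 7, home of Slc25a22, to 2.62% on chromosome 19, with 0 of 10 on the Y.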

How the data were processed

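The 12 libraries were grouped by their labels. The values are deposited normalized counts, a signal in which the authors divided the reads of each gene by 1 size factor per library: with a tolerance of 0.01, 100% of values came out as whole reads. The submitters' processing notes name STAR, RSEM, DESeq2 and mm10. Versions, gene annotation and the strand setting of the counting were not given in the sources used here. The deposited log2 fold changes and p-values of the authors, per the file headers, were used for counts only.

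The main test was limma 3.58.1 (R 4.3.3) on log2(normalized count + 1), genes with a mean of 0.5 or more, two-sided, Benjamini-Hochberg adjusted over all tested genes, threshold 0.05. edgeR 4.0.16 (quasi-likelihood), DESeq2 1.42.0 and voom were run on the recovered reads. Other alternatives were the pseudocount, the filter, scaling, sample weights, a replicate block and leaving out each library. For the contrast of both knockdowns, 1 limma fit held a mean per group. The procedure was tested on simulated data. Positions come from GENCODE vM21, which matched 23334 of 24411 symbols, and promoters from RefSeq. Named genes were the Tet genes, the largest and the most significant changes with a mean of 100 or more, up to 4 called genes per list and the clearest differences between knockdowns. Members, lists and rule were chosen with earlier results of these data known. Genes sharing exonic bases with a gene of the other strand are uncertain. Some results are not reported here.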

Additional observations from a re-analysis of the deposited data

Results flagged for a closer look

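In some genes the highest or lowest of 6 cultures lay further from the rest than Dixon's 95% critical value allows. This was so in 15 of 202 gene and group pairs (7.43%), where chance gives about 1 in 20. In shTet2 3 these were Slc25a12 at 1846 normalized counts, Reln at 182, Scg5 at 2602, Gorasp2 at 462 and Camk1d at 355. In shTet2 6 they were Syt2 at 27.8 and Igfbp3 at 306, and in shTet2 2 Tac1 at 132. Among the controls, shLuciferase 1 held Slc25a12 at 2390.0, Sort1 at 621 and Slc4a4 at 645, shLuciferase 2 held Rgs2 at 1637, Scg5 at 1712 and Nes at 481, and shLuciferase 5 held Kif21b at 1272.

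The change of other named genes differed between the knockdowns by the limma test of the difference, at an adjusted p of 0.05, given here as first minus second on the log2 scale. The first was below the second for the transcription factors Fos (−3.65), Nr4a1 (−3.42), Nr4a3 (−3.03), Nr4a2 (−3.01) and Fosl2 (−2.08). It was also below for Acan (−4.40), Kit (−1.85), Cort (−1.82), Syt6 (−1.67), Rgs2 (−1.41), Nefm (−1.39), Reln (−1.34), Rasl11b (−1.01), Cpe (−0.98), Uqcrfs1 (−0.91), Cplx1 (−0.88) and Rab3b (−0.68). The first was above the second for 1700048O20Rik (2.04), Cd24a (1.92), Tet2 (1.72), Camk2n1 (1.40), Camta1 (1.37), Pik3ip1 (1.34), Zwint (1.30), Nrep (0.99), Fxyd6 (0.91), Cxadr (0.85), Slc25a14 (0.77), Slc25a12 (0.70) and Scg5 (0.64). With 1 library left out, the adjusted p of the difference rose above 0.05 for Tet2, Slc25a14, Cpe, Nrep, Scg5, Rab3b, Cort and Cxadr (0.0502 to 0.0849).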

How the results depend on the processing

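Against 354 genes called, DESeq2 called 805, voom 592 and limma with sample weights 810. The share called higher was 33.9% in the main test and 43.1% with sample weights. Other scalings gave 329 to 340, other pseudocounts 347 and 351, no filter 272, a mean of 10 or more 384, and edgeR 378. Leaving out 1 library gave 222 (without shLuciferase 3) to 354, with 234 without shTet2 4. Leaving out shTet2 3, shTet2 6 and shLuciferase 4 together, chosen after seeing the data, gave 349, of which 254 were shared.

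With the number in the title as a replicate block 206 genes were called. Of the 95 named called genes 72 kept the call, and Uqcrfs1, Slc25a12 and Srm were among those that lost it. Same-numbered libraries had correlations of −0.169 to 0.072, 0 of 6 pairs passed 0.1 and 1 of 12 libraries correlated best with its own number. These are correlations of deviations from the group mean. They cannot exclude a shared litter or preparation, which the labels do not give. A block within each table was not run for the difference between the knockdowns, because the columns of the second table share no number between groups. That count was 289, and 207 (without shTet2 4) to 414 (without shLuciferase 1) with 1 library left out, and 412 with the 3 left out.

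Tet2 changed sign, uncalled throughout, with voom (−0.11), with sample weights (−0.16) and without shLuciferase 2 (−0.059, the lowest of a range up to 0.36). Camk2n1 ranged from −0.019 (without shLuciferase 5) to 0.14. The causes were not tested. Of 95 named called genes, 72 to 95 kept the call in 13 alternatives, 75 to 85 with 1 library left out, and 0 changed sign. Depth limits genes of few reads in the 3 shallowest libraries.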
